A study of Mus musculus with 13 samples.

Results

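Duox1, Duoxa1, Duox2, Duoxa2, Nox1, Noxo1, Noxa1 and Cyba encode the NADPH oxidases of gut epithelium and their partner proteins, and their expression was followed across 6 genotypes of mouse enterocytes. The 8 genes were taken from an array of 19938 genes through probe sets annotated to exactly 1 gene symbol. Where a gene had several such probe sets, the one with the highest mean was used, but each of the 8 had a single probe set, so this step chose nothing among them. The family was chosen from measured values: Duox2, Duoxa2 and Nox1 had shown large differences between CKIalpha knockout and control groups on these same arrays. Their differences between genotypes are therefore given as a description, and the p-values printed for them come from a fit over all genes and are not independent support.

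NADPH oxidases move electrons from NADPH across a membrane to oxygen, which yields superoxide or hydrogen peroxide. Nox1 is the catalytic subunit of an oxidase of intestinal epithelium; it needs the membrane partner encoded by Cyba, the organiser Noxo1, the activator Noxa1 and the small GTPase Rac1. Duox1 and Duox2 carry an additional peroxidase-like domain and calcium-binding motifs, release hydrogen peroxide at the cell surface, and leave the endoplasmic reticulum only with their maturation factors, Duoxa1 and Duoxa2. In the gut the Duox2 and Duoxa2 pair is best known for host defence at the epithelial surface.

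The study knocked out the gene of casein kinase I alpha (CKIalpha), a kinase that marks the Wnt effector beta-catenin for degradation, in the gut of mice of the 129/SVJ background. Enterocytes, the cells lining the gut, were profiled on Affymetrix arrays, and the comparisons asked what the loss of CKIalpha changes with and without the tumour suppressor p53 or p21, a target of p53 that holds back the cell cycle. The groups were CKIalpha Het and CKIalpha KO, with 1 or both copies of the gene knocked out and p53 and p21 present; CKIalpha Het/p21 KO and CKIalpha KO/p21 KO; and CKIalpha Het/p53 KO and CKIalpha KO/p53 KO. Each group had 2 arrays, described in the labels as biological replicates. All controls thus carried a knockout copy of the CKIalpha gene, and no group was free of it. The labels gave neither the Cre driver, the segment of gut, the age of the mice nor whether animals were pooled.

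Values are log2 intensities, on which a difference of 1 is a 2-fold change. The median of an array lay between 4.96 and 5.12. Differences were tested with limma over 16721 genes, with 1 coefficient per group and 1 estimate of the spread per gene from all 12 arrays, and calls were made where the p-value, adjusted by Benjamini-Hochberg within a comparison, was under 0.05. A gene was tested when at least 2 arrays exceeded the 25th percentile of that array; all 8 oxidase genes were. Errors below are standard errors of the fit (n = 2 per group), and intervals are 95% intervals.

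Before the comparisons, 3 features of the whole data set bear on what follows. The standard deviation between replicates, pooled over genes, ran from 0.204 (CKIalpha Het) to 0.341 (CKIalpha KO/p21 KO), so the CKIalpha KO/p21 KO arrays were the least alike. Xist, which coats the silenced X chromosome, was low on every replicate 1 array (3.15 to 3.94) and high on every replicate 2 array (8.91 to 10.1), so each group held 1 array of each kind. The epithelial markers fitted the enterocyte label: Epcam, an epithelial adhesion molecule, lay between 11.3 and 11.7 on all 12 arrays and Vil1, a microvillus protein, between 11.7 and 12.6. Lymphocyte markers were measured too and varied more between arrays. Cd3g lay between 7.37 and 10.7, Cd8a between 7.49 and 10.4 and Gzma between 8.59 and 11.4, while Ms4a1 lay between 3.06 and 4.96. The samples therefore held RNA of lymphocytes besides that of epithelium. In bulk RNA of this kind, fewer cells of a type and less RNA per cell cannot be told apart.

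Duox2 and Duoxa2 lie head to head on chromosome 2, with 673 bases between their annotated starts, and moved together, so the 250 bases before each start are shown (RefSeq, GRCm38.p6), followed by those of Nox1. Duox2 spans chr2:122298228-122298477 on the minus strand, Duoxa2 chr2:122298650-122298899 on the plus strand and Nox1 chrX:134111855-134112104 on the minus strand. Capitals mark matches to the motifs searched.
Duox2: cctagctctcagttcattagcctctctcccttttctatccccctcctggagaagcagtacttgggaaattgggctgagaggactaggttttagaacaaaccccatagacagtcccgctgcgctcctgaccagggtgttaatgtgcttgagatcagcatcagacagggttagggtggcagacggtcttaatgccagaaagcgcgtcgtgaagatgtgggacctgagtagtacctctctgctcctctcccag
Duoxa2: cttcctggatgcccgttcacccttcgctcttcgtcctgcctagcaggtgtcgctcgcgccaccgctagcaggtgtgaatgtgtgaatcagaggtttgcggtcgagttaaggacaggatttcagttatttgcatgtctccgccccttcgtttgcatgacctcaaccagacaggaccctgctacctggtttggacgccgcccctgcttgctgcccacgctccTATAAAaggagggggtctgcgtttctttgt
Nox1: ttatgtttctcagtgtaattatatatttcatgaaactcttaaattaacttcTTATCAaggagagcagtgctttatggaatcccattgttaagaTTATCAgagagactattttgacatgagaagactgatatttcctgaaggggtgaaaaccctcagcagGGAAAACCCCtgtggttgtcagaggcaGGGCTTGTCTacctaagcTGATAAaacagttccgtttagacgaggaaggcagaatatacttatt

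The TCF/LEF motif was searched as CTTTGAA, then as CTTTGAT, then as CTTTGTA and then as CTTTGTT. The GATA motif was searched as AGATAA, then as AGATAG, then as TGATAA and then as TGATAG, and the STAT motif as TTCNNNGAA. These, the NF-kB site and the p53 element (1 decamer) were searched on both strands, and the TATA box (TATAAA) on the gene's own strand. The Duoxa2 window held a TATA box 30 to 25 bases before the start, and the Duox2 window held none of the 6 motifs. The Nox1 window held 3 GATA matches, 1 NF-kB match 91 to 82 bases before the start and 1 p53 element match 64 to 55 bases before it, and none of these overlapped. Such matches are common: of 32851 promoters of this length, 26.5% held a GATA match, 14.8% TCF/LEF, 7.59% a TATA box, 7.25% NF-kB, 7.13% the p53 element and 7.02% STAT. None of the 3 windows held a TCF/LEF or STAT match. A match is a description of letters, and no binding was measured.

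**Figure D1:**
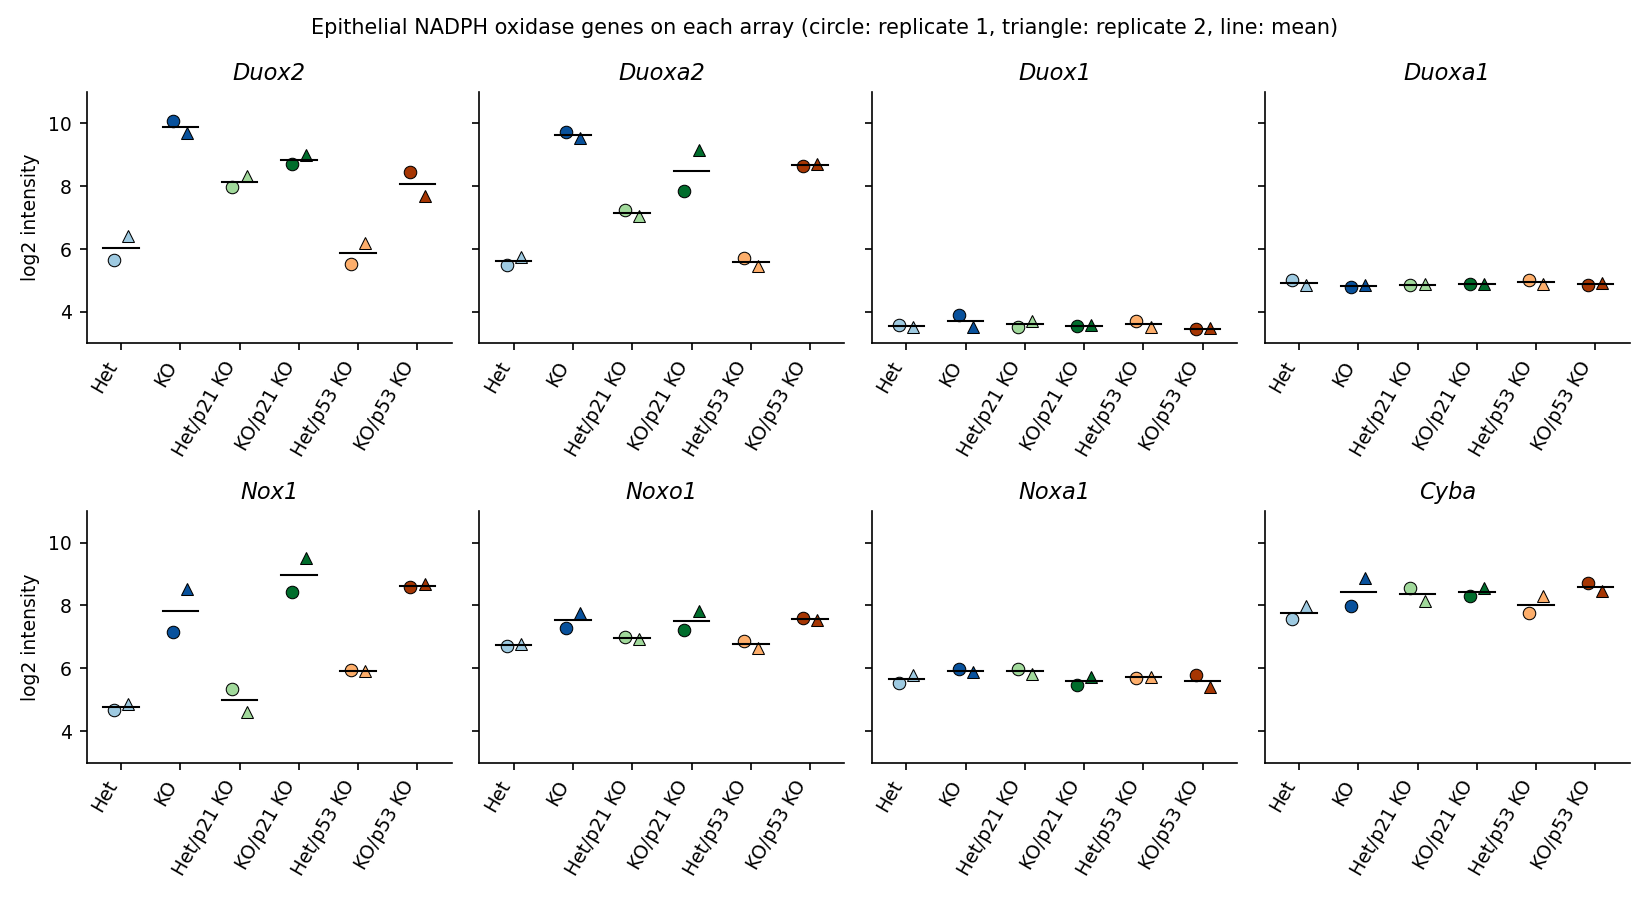
Log2 intensity of the 8 oxidase genes (1 panel each) in the 6 genotypes; circles are replicate 1, triangles replicate 2 and the line is the mean of both. Duox2, Duoxa2 and Nox1 ranged over more than 4 log2 units, while Duoxa1 stayed between 4.80 and 5.01. Heights are comparable within a panel, not between panels.

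Duox2 and Duoxa2 were the genes of the family called higher when CKIalpha was lost with p53 and p21 present. Nox1 (3.09), Noxo1 (0.79), Cyba (0.67) and Noxa1 (0.27) also stood higher there but did not pass. Their arrays did not overlap, as for 22.3% of all genes higher. Duox2, the oxidase itself, had log2 intensities of 5.64 and 6.41 on the CKIalpha Het arrays and 10.08 and 9.71 on the CKIalpha KO arrays. Duoxa2, its maturation factor, was at 5.48 and 5.74 in CKIalpha Het and at 9.74 and 9.52 in CKIalpha KO. For both genes the knockout arrays lay far above the control arrays. The Duox2 replicates of CKIalpha Het stood 0.77 apart, and the other replicates of these 2 groups at most 0.38. Duox2 was 14.6-fold higher (log2 3.87 ± 0.33, interval 8.75 to 24.4-fold, limma adjusted p = 0.00381) and Duoxa2 16.2-fold higher (4.02 ± 0.33, interval 9.73 to 26.9-fold, limma adjusted p = 0.00381). They made up 2 of the 8 family members called higher in this comparison, in which 0.0239% of all genes tested were called higher. Neither was called when CKIalpha Het replicate 1 was left out (limma adjusted p = 0.0653 for both) or CKIalpha KO replicate 2 (0.0577 for both), with differences of 3.49 and 3.89 in the first case and 4.06 and 4.13 in the second.

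With p21 knocked out, the controls of this pair stood nearer to the knockouts, and neither gene passed. Duox2 was at 7.97 and 8.32 on the CKIalpha Het/p21 KO arrays and at 8.71 and 8.98 on the CKIalpha KO/p21 KO arrays. Duoxa2 was at 7.25 and 7.04 in the former and at 7.86 and 9.14 in the latter. The groups did not overlap for either gene, as for 26.9% of all genes higher, but the Duoxa2 values of the CKIalpha KO/p21 KO replicates lay 1.28 apart. The differences, 0.70 ± 0.33 for Duox2 (1.63-fold, interval 0.974 to 2.72, limma adjusted p = 0.239) and 1.35 ± 0.33 for Duoxa2 (2.55-fold, interval 1.53 to 4.24, limma adjusted p = 0.0617), were both short of the threshold. Without CKIalpha KO/p21 KO replicate 1, the lower of these, the Duoxa2 difference was 1.99 and was called. That fit leaves 1 array in the group, so the gap of 1.28 no longer enters the spread.

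With p53 knocked out, the controls were low again and both genes rose. Duox2 was at 5.54 and 6.20 on the CKIalpha Het/p53 KO arrays and at 8.44 and 7.70 on the CKIalpha KO/p53 KO arrays. Duoxa2 was at 5.70 and 5.45 in the former and at 8.63 and 8.71 in the latter. Duox2 was thus 4.60-fold higher (2.20 ± 0.33, interval 2.75 to 7.68-fold, limma adjusted p = 0.00763) and Duoxa2 8.55-fold higher (3.10 ± 0.33, interval 5.14 to 14.2-fold, limma adjusted p = 0.00427). Without CKIalpha Het/p53 KO replicate 1 the Duox2 difference was 1.87 and was not called (limma adjusted p = 0.0629).

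**Figure D2:**
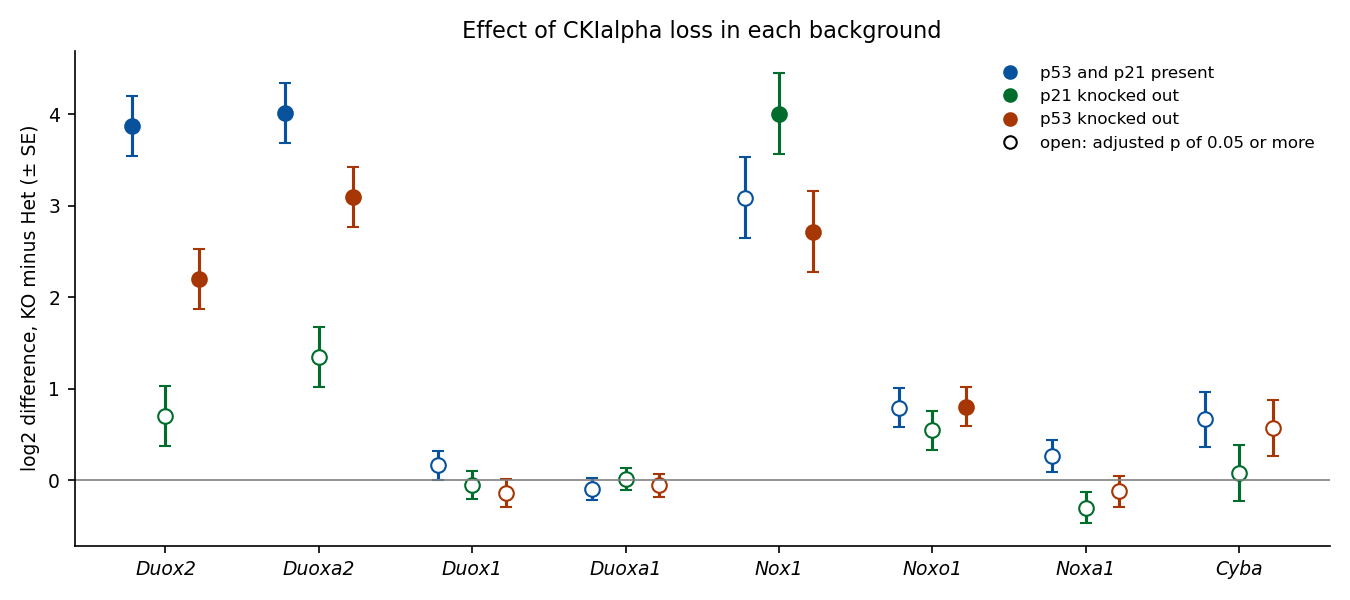
Log2 difference of CKIalpha KO minus CKIalpha Het for the 8 genes in mice with both p53 and p21 (blue), without p21 (green) and without p53 (red); bars are standard errors of the limma fit and filled points have an adjusted p under 0.05. Duox2 was at 3.87 with both genes, 0.70 without p21 and 2.20 without p53, while Nox1 lay between 2.71 and 4.003 in all 3.

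Whether the CKIalpha effect differed between backgrounds was tested directly, as a difference of differences. For Duox2 the effect without p21 differed by -3.17 ± 0.47 (log2), which had an unadjusted limma p of 5.53e-05 and an adjusted p of 0.308; for Duoxa2 it differed by -2.67 ± 0.46, with an unadjusted p of 0.000203 and a limma adjusted p of 0.566. Neither passed, and limma called 0 of all genes tested in this comparison (background 0%), where 1359 genes had an unadjusted p under 0.05. Both were called when CKIalpha KO/p21 KO replicate 1 was left out (Duox2 -3.03, Duoxa2 -2.02), and Duoxa2 also without replicate 2 of that group (-3.31). The Duoxa2 replicates of that group stood 1.28 apart, and with 1 array left the group adds nothing to the spread. The Duoxa2 standard error thereby fell to 0.26, so its calls rest on leaving out that gap. Without p53 the Duox2 effect differed by -1.67 ± 0.47 (limma adjusted p = 0.24) and the Duoxa2 effect by -0.92 ± 0.46 (limma adjusted p = 0.383), and neither passed; 0.0179% of all genes were called.

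The same contrast can be read as the effect of p21 loss, whose point estimates for the pair were above 0 in control gut and below 0 in CKIalpha knockout gut; their difference is the value just given, which did not pass. In CKIalpha Het mice, p21 loss went with a Duox2 level 4.35-fold higher (2.12 ± 0.33, unadjusted p = 8.64e-05, limma adjusted p = 0.361) and a Duoxa2 level 2.90-fold higher (1.54 ± 0.33, unadjusted p = 0.00092, limma adjusted p = 0.379), without overlap of the arrays but without passing the test. In this comparison 0 of the 8 genes and 0.00598% of all genes were called higher, while 15.9% of all genes were higher without overlap of the arrays. Fibroblast and smooth muscle markers also stood higher on the CKIalpha Het/p21 KO arrays, with 7 of 8 tested above 0, 0 called, a median of 0.54 and summed intensities of 775 to 1785 against 410 to 705 in CKIalpha Het. Their smooth muscle genes were high on replicate 2 alone of this group, where Acta2 was at 9.66 against 5.11 on replicate 1 and Myh11 at 7.71 against 4.38. The collagen genes Col1a1, Col1a2 and Col3a1 were instead higher on replicate 1 (7.12, 7.29 and 6.47) than on replicate 2 (6.22, 6.48 and 5.73). Dcn was at 8.12 on replicate 1 and 8.74 on replicate 2. Without replicate 2, which keeps the array with the higher collagen values, the differences were 1.95 for Duox2 and 1.64 for Duoxa2. Neither gene was called in that setting. Leaving out either CKIalpha KO/p21 KO array, which is not compared here, reduced the pooled spread of Duoxa2. With the same difference, Duoxa2 was then called, which adds nothing on the groups compared. In CKIalpha KO mice, p21 loss went with differences of -1.05 ± 0.33 for Duox2 (limma adjusted p = 0.281) and -1.13 ± 0.33 for Duoxa2 (limma adjusted p = 0.258), neither of which passed (background 0.0359%). Without CKIalpha KO/p21 KO replicate 2, the Duoxa2 value was -1.77 and was called, with 1 array left in that group and its replicate gap no longer in the spread.

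Loss of p53 on top of CKIalpha loss lowered Duox2. The CKIalpha KO/p53 KO arrays lay 3.54-fold below the CKIalpha KO arrays (-1.82 ± 0.33, limma adjusted p = 0.0472), the only member called among the 8, where 0.227% of all genes were called lower. This call was made in 7 of 17 alternative settings, and with all dim genes kept the adjusted limma p was 0.0553; leaving out single arrays moved the difference between -2.19 and -1.45 and the adjusted p between 0.0133 and 0.267. Duoxa2 had a difference of -0.96 ± 0.33 (limma adjusted p = 0.132) that did not pass. Leaving out either CKIalpha KO/p21 KO array, which is not compared here, reduced the pooled spread with the same difference, and Duoxa2 was called. In CKIalpha Het mice, p53 loss left both genes near their level with p53 present, at -0.15 ± 0.33 for Duox2 (interval -0.89 to 0.59, limma adjusted p = 0.974) and -0.03 ± 0.33 for Duoxa2 (interval -0.77 to 0.70, limma adjusted p = 0.999).

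**Figure D3:**
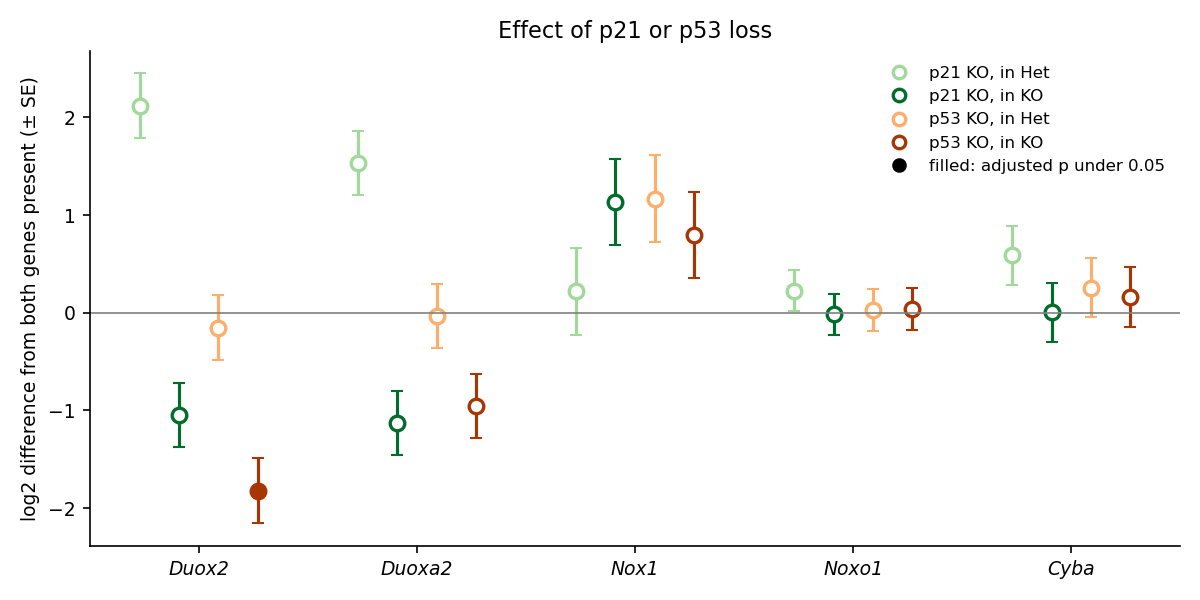
Log2 difference made by loss of p21 or p53, in CKIalpha Het and in CKIalpha KO enterocytes, for 5 of the 8 genes; bars are standard errors and the filled point has a limma adjusted p under 0.05. Duox2 was at 2.12 after p21 loss in the controls and at -1.05 and -1.82 after p21 or p53 loss in the knockouts.

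Duox1 and Duoxa1, the second oxidase and maturation factor pair of the same cluster on chromosome 2, were called in none of the 11 comparisons. Duoxa1 was measured above the 25th percentile on all 12 arrays and lay between 4.80 and 5.01. Duox1 lay between 3.44 and 3.90 and exceeded the 25th percentile of the array, itself between 3.59 and 3.73, on only 3 of 12 arrays, so it lay at the dim end of the arrays. In the comparison of CKIalpha KO with CKIalpha Het, Duox1 was at 0.16 ± 0.16 (interval -0.19 to 0.51, limma adjusted p = 0.84) and Duoxa1 at -0.09 ± 0.12 (interval -0.36 to 0.18, limma adjusted p = 0.897). The intervals of Duoxa1 lay within 0.36 of 0 in each background. The starts of this pair also face away from each other, 1942 bases apart.

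Nox1 rose with CKIalpha loss without p21 and without p53, and its difference with both genes present did not pass. With p53 and p21 present it was at 4.66 and 4.85 on the CKIalpha Het arrays and at 7.16 and 8.52 on the CKIalpha KO arrays. With p21 knocked out the controls were at 5.34 and 4.61 and the knockouts at 8.43 and 9.52. With p53 knocked out the controls were at 5.94 and 5.91 and the knockouts at 8.60 and 8.67. All 6 knockout arrays lay above all 6 control arrays, as they did for 3.74% of all genes tested, but the replicates of the CKIalpha KO and CKIalpha KO/p21 KO groups stood 1.36 and 1.09 apart, with replicate 2 the higher.

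The fold changes of Nox1 were 8.50 with both genes present (3.09 ± 0.44, interval 4.28 to 16.9-fold, limma adjusted p = 0.0803), 16.0 without p21 (4.003 ± 0.44, interval 8.08 to 31.8-fold, limma adjusted p = 0.00928) and 6.56 without p53 (2.71 ± 0.44, interval 3.31 to 13.0-fold, limma adjusted p = 0.00803). The first of these did not pass. It was called without CKIalpha KO replicate 1 (3.77, limma adjusted p = 0.012) and without either CKIalpha KO/p21 KO array (limma adjusted p = 0.0139). Nox1 was the only member called without p21, 1 of 8, against 1.46% of all genes called higher. This call was lost without CKIalpha Het/p21 KO replicate 2 (3.64, limma adjusted p = 0.111), and the call without p53 was lost without CKIalpha Het/p53 KO replicate 1 (0.0629) or CKIalpha KO/p53 KO replicate 2 (0.0535).

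The CKIalpha effect on Nox1 did not pass a test of difference between backgrounds: it was larger by 0.92 ± 0.63 without p21 (interval -0.48 to 2.32, limma adjusted p = 0.728) and differed by -0.37 ± 0.63 without p53 (interval -1.77 to 1.03, limma adjusted p = 0.802). In control gut, p53 loss went with a Nox1 level 2.25-fold higher (1.17 ± 0.44, interval 1.13 to 4.47-fold), with arrays that did not overlap and replicates 0.03 apart, but the test did not pass (unadjusted p = 0.0251, limma adjusted p = 0.829), and limma called 0 of all genes there, with 941 at an unadjusted p under 0.05; 24.8% of all genes were higher without overlap. After p21 loss in control gut the Nox1 value was 0.22 ± 0.44. In CKIalpha KO mice the additional loss of p21 or p53 gave differences of 1.14 ± 0.44 (limma adjusted p = 0.369) and 0.80 ± 0.44 (limma adjusted p = 0.324), neither of which passed. These point estimates had the sign opposite to those of Duox2 in the same groups; the difference between the genes was not tested.

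Noxo1, the organiser that brings the complex of Nox1 together, rose with CKIalpha loss without p53, by less than Nox1, and did not pass in the other backgrounds taken singly. Its values were 6.71 and 6.77 in CKIalpha Het and 7.29 and 7.77 in CKIalpha KO, then 7.01 and 6.92 in CKIalpha Het/p21 KO and 7.22 and 7.81 in CKIalpha KO/p21 KO. With p53 knocked out they were 6.87 and 6.66 in the controls and 7.60 and 7.54 in the knockouts. All 6 knockout arrays again lay above all 6 control arrays. The difference passed only without p53 (0.80 ± 0.21, 1.74-fold, interval 1.26 to 2.42, limma adjusted p = 0.0305) and was 0.79 ± 0.21 with both genes present (limma adjusted p = 0.275) and 0.55 ± 0.21 without p21 (limma adjusted p = 0.159). The single call was lost after a further quantile normalization (0.62, limma adjusted p = 0.0546) and when any of the 4 arrays compared was left out (limma adjusted p between 0.0904 and 0.142). Without CKIalpha KO/p21 KO replicate 1 the difference without p21 was 0.84 and was called (limma adjusted p = 0.0254).

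Noxa1, the activator of Nox1, and Cyba, the membrane partner that stabilises Nox1, showed no call. Noxa1 lay between 5.39 and 5.99 on all 12 arrays and differed by 0.27 ± 0.17 with both genes present (limma adjusted p = 0.715), -0.30 ± 0.17 without p21 (limma adjusted p = 0.343) and -0.12 ± 0.17 without p53 (limma adjusted p = 0.648). Its arrays did not overlap in the first of these, as for 22.3% of all genes higher there, nor in the second, as for 24.3% of all genes lower there. Cyba was at 7.57 and 7.97 in CKIalpha Het and at 7.99 and 8.88 in CKIalpha KO, at 8.57 and 8.15 in CKIalpha Het/p21 KO and at 8.31 and 8.57 in CKIalpha KO/p21 KO, and at 7.75 and 8.31 in CKIalpha Het/p53 KO and at 8.72 and 8.47 in CKIalpha KO/p53 KO. Its control and knockout arrays overlapped without p21, and 3 of the 6 knockout arrays lay above every control. The differences of Cyba were 0.67 ± 0.30 (interval -0.01 to 1.34, limma adjusted p = 0.56), 0.08 ± 0.30 and 0.57 ± 0.30 (limma adjusted p = 0.212).

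Without p53, 4 of the 8 members were called higher (Duox2, Duoxa2, Nox1 and Noxo1) and none lower, where 11% of all genes were called higher. The count was 1 without CKIalpha Het/p53 KO replicate 1 and 2 without CKIalpha KO/p53 KO replicate 2. Averaged over the 3 backgrounds, the same 4 genes were called higher, against 15.5% of all genes: Nox1 by 3.27 ± 0.26 (9.63-fold, limma adjusted p = 0.000856), Duoxa2 by 2.82 ± 0.19 (7.06-fold, limma adjusted p = 0.000707), Duox2 by 2.26 ± 0.19 (4.78-fold, limma adjusted p = 0.00115) and Noxo1 by 0.71 ± 0.12 (1.64-fold, limma adjusted p = 0.0043). These 4 average calls were made in all 17 alternative settings. Cyba averaged 0.44 ± 0.18 (limma adjusted p = 0.0968) and was called in 1 of them, without CKIalpha KO replicate 1 (0.59, limma adjusted p = 0.0235). The median difference of the 8 members was 0.73, 0.31 and 0.69 with both genes, without p21 and without p53, beside 0.02, -0.01 and -0.06 over all genes. Because Duox2, Duoxa2 and Nox1 led to the choice of the family, these counts and medians follow in part from that choice. They are no support for a difference from all genes. The double knockouts did not differ from each other by a call in any of the 8 genes (background 0.329%), the largest difference being -0.77 ± 0.33 for Duox2 (limma adjusted p = 0.526).

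The order of the groups differed between the oxidases. The Duox2 mean was highest in CKIalpha KO (9.89), then CKIalpha KO/p21 KO (8.85), CKIalpha Het/p21 KO (8.14), CKIalpha KO/p53 KO (8.07), CKIalpha Het (6.02) and CKIalpha Het/p53 KO (5.87). The neighbours CKIalpha Het/p21 KO and CKIalpha KO/p53 KO overlapped, as did the last pair, so 1 control group stood level with 1 knockout group and only 5 of the 6 knockout arrays exceeded every control. Duoxa2 had the order CKIalpha KO (9.63), CKIalpha KO/p53 KO (8.67), CKIalpha KO/p21 KO (8.50), CKIalpha Het/p21 KO (7.15), CKIalpha Het (5.61) and CKIalpha Het/p53 KO (5.58), in which the second and the third overlapped and the last pair overlapped. Nox1 had the order CKIalpha KO/p21 KO (8.98), CKIalpha KO/p53 KO (8.64), CKIalpha KO (7.84), CKIalpha Het/p53 KO (5.92), CKIalpha Het/p21 KO (4.97) and CKIalpha Het (4.76), with overlap between the first pair and between the last pair. CKIalpha KO was thus the top group for Duox2 and Duoxa2 and the lowest knockout group for Nox1.

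Likeness of profiles was measured as the root-mean-square (RMS) difference between the log2 values of 2 genes over the 12 arrays, after subtracting each gene's own mean. Duoxa2 was 0.59 from Duox2, and of all genes tested 0 were closer to either. For scale, the RMS deviation of Duox2 from its own mean was 1.47 and that of Duoxa2 1.57. The pair lay on the same side of their own means on 9 of 12 arrays; the remaining arrays were those of CKIalpha Het/p21 KO and CKIalpha KO/p53 KO replicate 2. Nox1 was 1.08 from Duoxa2 and 1.43 from Duox2, against an RMS deviation of 1.75 of its own. Nox1 and Noxo1 lay on the same side of their own means on 12 of 12 arrays but 1.40 apart, since Noxo1 moved less. Both measures describe arrays of which the groups differ, and carry no test.

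**Figure D4:**
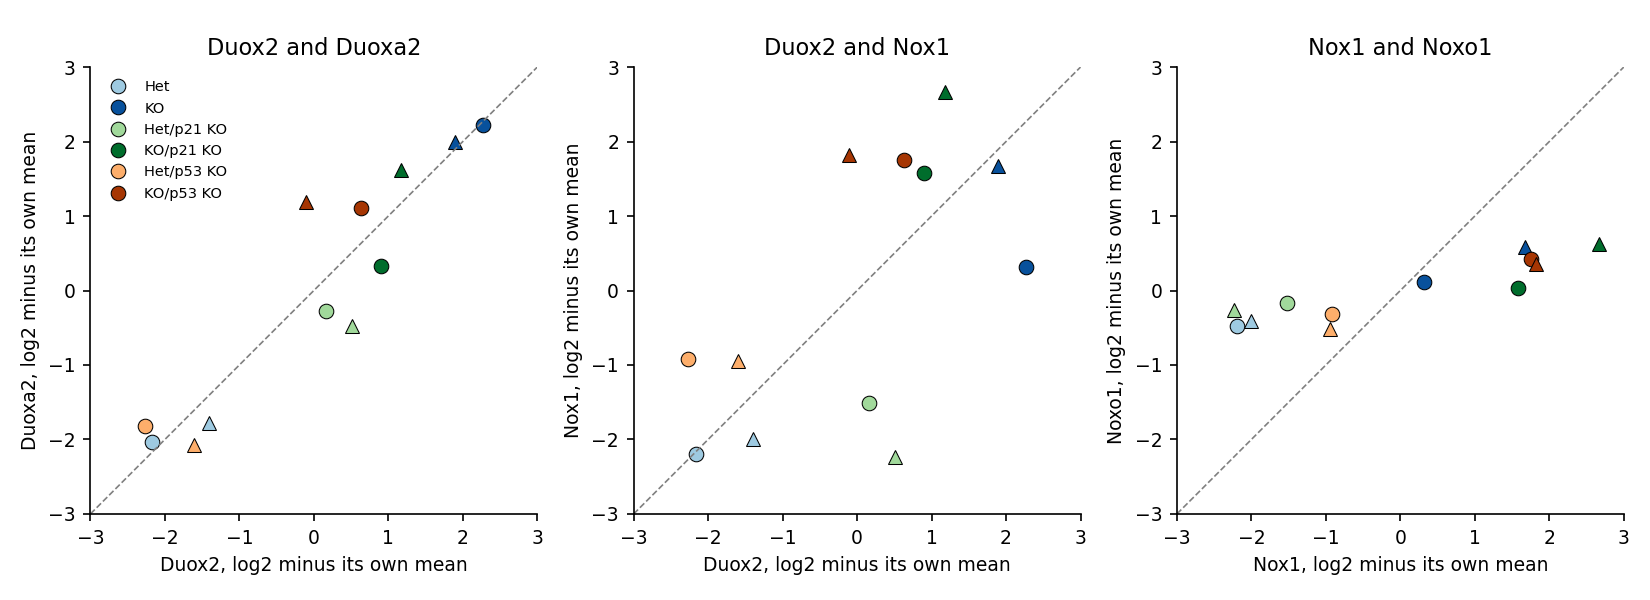
Log2 values of gene pairs on the 12 arrays after subtracting each gene's own mean (x and y axes; circles replicate 1, triangles replicate 2, colours the genotypes, dashed line equality). Duox2 and Duoxa2 followed the line of equality with an RMS difference of 0.59, Duox2 and Nox1 lay 1.43 apart, and Nox1 and Noxo1 shared the sign on all 12 arrays with a smaller range in Noxo1.

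Outside the family, the genes most like Duox2 were Muc4, a membrane mucin (RMS difference 0.86), Smox, spermine oxidase (0.93), and Plet1, a surface protein of epithelial progenitors (0.94). Those most like Duoxa2 were Akr1b8, an aldo-keto reductase (0.66), Gpx2, the glutathione peroxidase of gut epithelium (0.83), and Ddah1, which degrades methylated arginine (0.84). Those most like Nox1 were Gml (0.64), Akr1b8 (0.65) and Mboat1, a lysophospholipid acyltransferase (0.66). Muc4 was at 5.32 and 5.33 in CKIalpha Het, 6.74 and 8.02 in CKIalpha KO, 7.39 and 7.48 in CKIalpha Het/p21 KO and 7.89 and 8.50 in CKIalpha KO/p21 KO. As for Duox2, its CKIalpha Het/p21 KO arrays lay above its CKIalpha Het arrays. Because these genes were picked by likeness on the same 12 arrays, such shared patterns follow from the choice and are no separate observation. Akr1b8 was at 4.68 and 4.93 in CKIalpha Het, 7.59 and 9.02 in CKIalpha KO, 6.39 and 5.90 in CKIalpha Het/p21 KO and 8.10 and 9.15 in CKIalpha KO/p21 KO, which lies between the Duoxa2 and Nox1 patterns.

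The other genes of the pathway were taken as lists. Of 10 other NADPH oxidase genes, 8 were tested and 0 were called in any of the 3 backgrounds. Their medians were 0.07, -0.39 and -0.34 in the order both genes, without p21 and without p53. In that order 0.0239%, 1.46% and 11% of all genes were called higher, and 0, 86 and 1140 genes lower. With shares that small, 0 of 8 says little in the first 2 backgrounds. The smallest p belonged to Cybc1, a chaperone of the phagocyte oxidase, at -0.53 ± 0.17 without p53 (limma adjusted p = 0.057). Cybb, the phagocyte counterpart of Nox1, was at -0.49 ± 0.53, -1.47 ± 0.53 and -1.01 ± 0.53, and none of these passed, while their average passed as lower (-0.99 ± 0.31, limma adjusted p = 0.0425). Rac1, which Nox1 needs, lay between 10.4 and 10.9 on all arrays. Nox4, a constitutively active oxidase, lay between 2.91 and 3.39 and was too dim to test.

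Among enzymes that use or remove the products of the oxidases, calls were made in both directions. Of 7 peroxidases, 5 were tested and 1 was called. Lpo, lactoperoxidase, rose without p53 (3.34 ± 0.76, limma adjusted p = 0.0188), where 11% of all genes were called higher. Lpo lay at 8.05 and 7.69 in CKIalpha KO/p53 KO against 4.28 and 4.77 in its controls, and at 4.04 and 7.21 in CKIalpha KO, where the replicates disagreed. Of 22 genes that remove or conduct superoxide and peroxide, 20 were tested. None of them was called with both genes present or without p21, where 0.0239% and 1.46% of all genes were called higher. Without p53, 3 were called higher and 2 lower, where 11% of all genes were called higher and 6.82% lower. Gpx2 rose by 2.33 ± 0.40 (limma adjusted p = 0.00889), and the peroxiredoxins Prdx2 and Prdx3 rose by 0.81 ± 0.21 (0.0291) and 0.83 ± 0.25 (0.0484). Cat, catalase, fell by 3.31 ± 0.51 (limma adjusted p = 0.00771) and Aqp3, a channel that passes hydrogen peroxide, fell by 3.52 ± 0.38 (limma adjusted p = 0.00427). Gpx2 was at 2.08 ± 0.40 with both genes present (limma adjusted p = 0.133). Averaged over the backgrounds, 6 of the 20 were called higher and 2 lower, beside 15.5% and 8.96% of all genes. The list medians were 0.08, 0.05 and -0.01; Prdx3 was named after its values were seen.

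Receptors and regulators known to act on these oxidase genes were not called higher in any background, where 0.0239%, 1.46% and 11% of all genes were. Of 21 such genes 16 were tested, and the medians were -0.04, -0.19 and -0.27. Il17rc, a subunit of the interleukin-17 receptor, fell without p21 (-1.09 ± 0.18, limma adjusted p = 0.0343) and without p53 (-1.37 ± 0.18, limma adjusted p = 0.00684), and Il10rb, a subunit of the interleukin-22 receptor, fell without p53 (-0.85 ± 0.24, limma adjusted p = 0.0363). With both genes present Il17rc was at -0.08 ± 0.18 and Nod2, a sensor of bacterial cell wall, at 0.62 ± 0.17 (limma adjusted p = 0.275), and neither passed.

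Among 15 tested of 16 epithelial defence genes, the list medians were 0.15, -0.14 and -0.11. With both genes present 0 of them were called, where 0.0239% of all genes were called higher and 0 genes lower. Reg3b, an antimicrobial lectin, was at 10.2 and 10.6 in CKIalpha Het and 12.7 and 12.2 in CKIalpha KO (2.08 ± 0.53, limma adjusted p = 0.257), and at 12.5 and 12.6 in CKIalpha Het/p21 KO. Nos2, the inducible nitric oxide synthase, was at 5.23 and 7.0 in CKIalpha Het, 8.80 and 7.70 in CKIalpha KO (2.14 ± 0.55, limma adjusted p = 0.263) and 8.32 on both CKIalpha Het/p21 KO arrays. These did not pass. Their CKIalpha Het/p21 KO arrays lay above their CKIalpha Het arrays, as for 15.9% of all genes. For p21 loss in CKIalpha Het, 11 of the 15 defence genes were above 0, 0 were called and the median was 0.23. Retnlb went the other way, at 6.60 and 6.98 in CKIalpha Het and at 3.46 and 3.18 in CKIalpha Het/p21 KO. Ido1, which degrades tryptophan, fell without p21 (-2.98 ± 0.56, limma adjusted p = 0.044) and without p53 (-2.90 ± 0.56, limma adjusted p = 0.0118). Reg3a, another lectin, fell without p53 (-3.76 ± 0.67, limma adjusted p = 0.00957), as did Il18 (-0.61 ± 0.16, limma adjusted p = 0.0296) and Pigr (-0.69 ± 0.20, limma adjusted p = 0.0446), which were named after their values were seen.

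**Figure D5:**
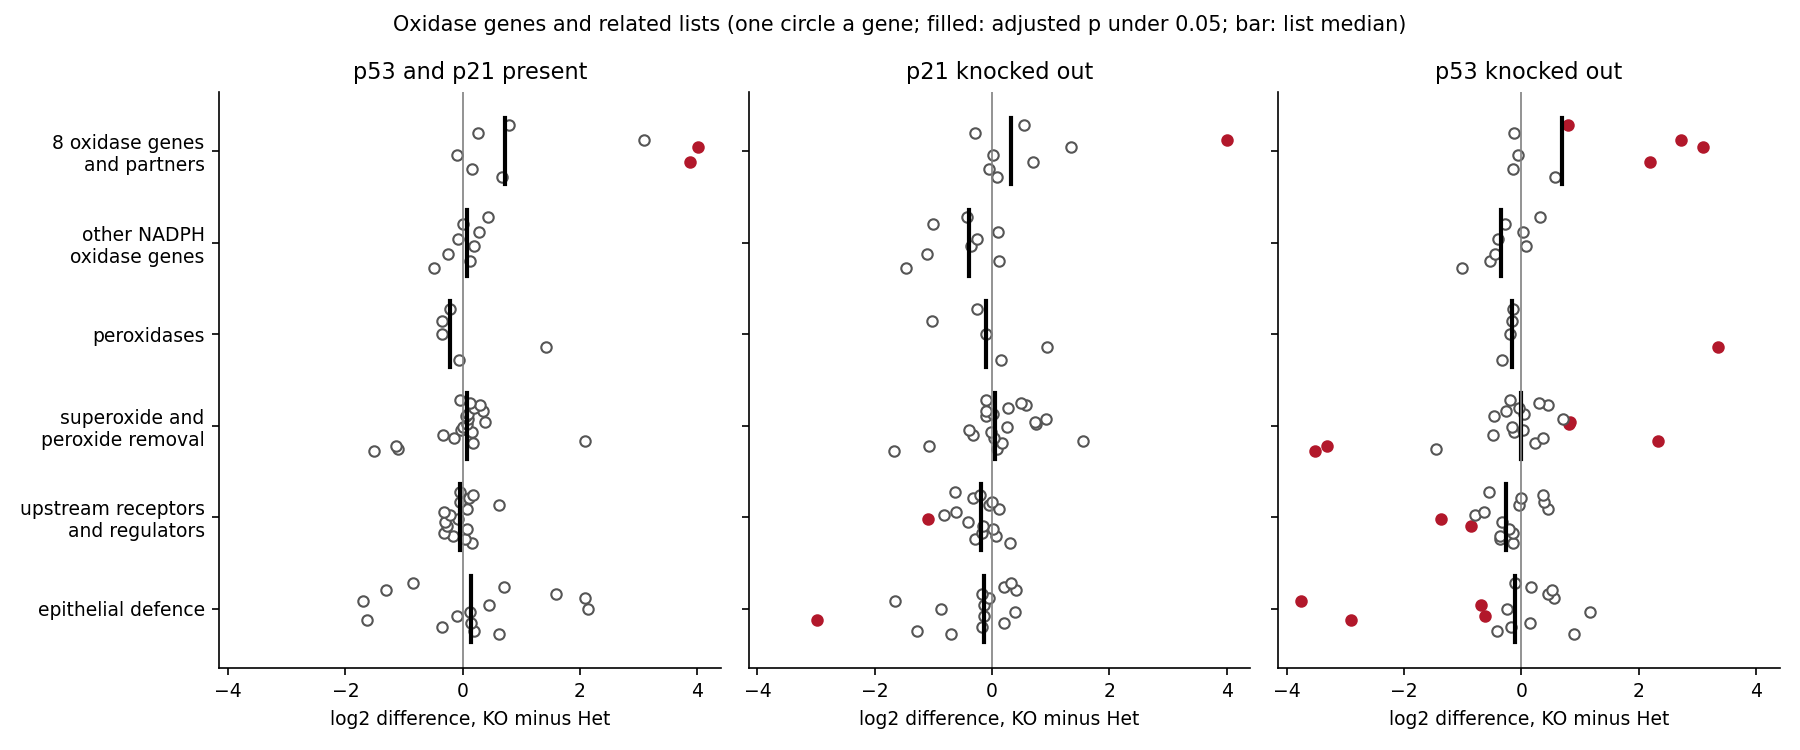
Log2 difference of CKIalpha KO minus CKIalpha Het for each tested gene of the family and of 5 related lists, in the 3 backgrounds; filled circles have a limma adjusted p under 0.05 and the bar is the median of a list. The median of the 8 oxidase genes was 0.73, 0.31 and 0.69, and those of the other lists lay between -0.39 and 0.15. The family was chosen from differences on these same arrays, so its medians are not comparable with those of the other lists as a test.

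Markers of cell states moved with some of these comparisons. Crypt and proliferation markers had medians of 0.05, 1.23 and 1.18 in the 3 backgrounds, with 0, 1 and 7 of 10 called higher (0.0239%, 1.46% and 11% of all genes); their summed intensities were 4099 to 4121 in CKIalpha Het and 2557 to 3746 in CKIalpha KO, 2462 to 4120 and 4559 to 6820 in the groups without p21, and 3133 to 3461 and 4740 to 6043 in the groups without p53. Axin2, a direct Wnt target, was among them at 1.30 ± 0.23 (limma adjusted p = 0.106), 1.92 ± 0.23 (0.014) and 2.35 ± 0.23 (0.00341). Olfm4, the brightest gene of this list in CKIalpha Het, weighed most in its sum and went the other way. It was at 11.24 and 11.02 in CKIalpha Het and at 9.53 and 9.45 in CKIalpha KO. With both genes present, 6 of the 10 crypt and proliferation markers were above 0. Absorptive enterocyte markers had medians of -0.11, -0.42 and -0.60, with 0, 0 and 4 of 11 called lower (6.82% of all genes were called lower without p53), among them lactase, Lct (-4.57 ± 0.94 without p53, limma adjusted p = 0.0141). With both genes present neither of these lists had a called gene, but limma called only 4 of all genes higher and 0 lower there. Absent calls in that comparison therefore say little about these markers. Of the epithelial markers, Krt18 rose (1.74 ± 0.51, limma adjusted p = 0.0426) and Vil1 fell (-0.66 ± 0.17, limma adjusted p = 0.027) without p53. The part of these shifts in the oxidase results was not tested.

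Phagocyte markers, 15 of 17 tested, had medians of -0.07, -0.25 and -0.04. Their summed intensities were 1322 to 1449 in CKIalpha Het and 935 to 1239 in CKIalpha KO. They were 1368 to 1545 and 768 to 886 without p21, and 670 to 995 and 908 to 1057 without p53. This sum follows its brightest genes, Ptprc (8.79 and 8.92 in CKIalpha Het) and Lyz2. Lymphocytes carry Ptprc as well, so the sum is not a level of phagocytes alone. Ptprc was at 9.69 on CKIalpha Het/p21 KO replicate 2, where the lymphocyte marker Gzma was at 11.38. On CKIalpha KO/p21 KO replicate 2 they were at 6.67 and 8.70. Lyz2 was at 8.75 and 8.58 in CKIalpha Het and at 6.75 and 7.28 in CKIalpha KO. With both genes present, 7 of the 15 tested phagocyte markers were above 0. The granulocyte markers S100a8, Mpo and Csf3r lay at 3.18 to 3.69, 3.56 to 4.33 and 3.44 to 4.06, near the dim end of the arrays. Ly6g, a neutrophil surface protein, was at 7.47 on CKIalpha KO/p53 KO replicate 2 and 4.94 on CKIalpha KO/p21 KO replicate 2, against 3.09 to 3.63 on the other 10 arrays (2.27 ± 0.95 without p53, limma adjusted p = 0.121). Lcn2, made by neutrophils and by epithelium, was at 6.17 on the same CKIalpha KO/p53 KO array and 3.82 on its replicate. Without that array Duox2 and Duoxa2 differed by 2.57 and 3.06 without p53 and were still called (limma adjusted p = 0.0316 and 0.0273). Cd68 (0.89 ± 0.17, limma adjusted p = 0.0117) and Cd14 (0.81 ± 0.20, limma adjusted p = 0.0245) rose without p53, and Lyz2 was at -1.65 ± 0.32 with both genes present (limma adjusted p = 0.129). Lymphocyte markers had medians of -0.27, -1.49 and -0.21 with 0 of 6 called, and fibroblast and smooth muscle markers 0.04, -0.52 and -0.14 with 0 of 8 called. In these comparisons 0.0239%, 1.46% and 11% of all genes were called higher, and 0, 86 and 1140 genes lower. The large intestine markers Hoxb13, Hoxd13, Hoxa13 and Car1 lay between 3.48 and 4.47 on all 12 arrays, and Car4 fell without p53 (-2.96 ± 0.57, limma adjusted p = 0.0116).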

How the data were processed

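RNA of 2 biological replicates per group was extracted with Trizol and hybridised to Affymetrix arrays, per the labels' protocols. Per the submitters' processing notes and the labels, the authors extracted intensities with Affymetrix Expression Console 1.1 by RMA Sketch and normalized them by the median. The deposited intensities were taken to be on a log2 scale; the base is not stated and was inferred from their range. The number of arrays limits the precision.

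The table held 35556 probe sets, of which 21789 carried 1 gene symbol in the platform annotation, 1621 several and 12146 none; only the first kind was named. Of 19938 genes, 999 had several probe sets, and the highest mean over 12 arrays was used. Of the 16721 genes tested, 16665 matched the RefSeq table of GRCm38.p6 by Entrez number. The fit used limma 3.58.1 in R 4.3.3 with 6 residual and, after moderation, 9.80 total degrees of freedom, 11 comparisons and two-sided p-values. It was tested on simulated data.

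The array titled as the third CKIalpha KO/p53 KO replicate, whose genotype label names a CKI KO, entered no comparison. The members, the lists and the tests were chosen with earlier results of these data known. Named were all 8 members, up to 4 genes per list with the smallest p in the KO against Het comparisons and any not tested, and the 3 genes most like each member whose group means spanned more than 1. Rac1, S100a8, Mpo, Csf3r, Ly6g, Lcn2, Acta2, Myh11, Col1a1, Col1a2, Col3a1, Dcn, Olfm4, Ptprc, Epcam, Retnlb, Cd3g, Cd8a, Gzma, Ms4a1 and Xist were named besides, after their values were seen. As alternatives the fit was run with all dim genes kept, after quantile normalization, with an intensity trend, with the replicate number as a block, on the mean over probe sets, and without each of the 12 arrays in turn. Promoter sequences were those of RefSeq; all 8 genes matched.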

Additional observations from a re-analysis of the deposited data

Results flagged for a closer look

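The array with disagreeing labels, which entered no comparison, had log2 intensities of 9.69 for Duox2, 9.45 for Duoxa2, 8.69 for Nox1, 7.69 for Noxo1 and 6.16 for Noxa1. These lay above all 6 CKIalpha Het arrays of any background, for Noxa1 narrowly (highest 5.99). The share of all genes for which this array does so was not computed, so nothing is concluded from it. The labels name for it either a CKIalpha knockout or a CKIalpha and p53 double knockout, and its values were not used to settle which.

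Noxa1 stood out because its arrays moved in opposite directions without overlap in different backgrounds: CKIalpha KO minus CKIalpha Het was 0.27 with p53 and p21 present and -0.30 without p21. The difference between these was tested in limma and did not pass (-0.56 ± 0.24, adjusted p = 0.615), and all Noxa1 values on the 12 arrays lay between 5.39 and 5.99.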

How the results depend on the processing

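With 2 arrays a group, single arrays decided many calls. Leaving out each of the 12 arrays in turn, the number of the 8 genes called ranged from 0 to 3 for CKIalpha KO against CKIalpha Het (0 without CKIalpha Het replicate 1 or CKIalpha KO replicate 2), from 0 to 3 without p21 and from 1 to 4 without p53. It ranged from 0 to 2 for the difference of the CKIalpha effect without p21, from 0 to 1 for p21 loss in CKIalpha KO, from 0 to 2 for p53 loss in CKIalpha KO and from 0 to 1 for p21 loss in CKIalpha Het. Without the filter on dim genes, which adds genes to the adjustment, 0 members were called for p53 loss in CKIalpha KO. Over all alternatives and comparisons, 1459 values of single members kept their side of the threshold, 23 lost a call and 14 gained one. While 0 called values reversed, some uncalled values changed sign, as the Duox1 average over backgrounds did in 5 of 17 settings. The cause of the changes was not tested beyond the arrays named. Where a group was left with 1 array, it was assumed to vary like the others.

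The replicate numbers were not shown to pair the samples: over the 15 pairs of groups, deviations of arrays of the same number had correlations between -0.16 and 0.25 across genes, with 5 over 0.1. The numbers do track a feature shared by all 6 groups, since Xist was low on every replicate 1 array and high on every replicate 2 array. With the replicate block, 2, 1 and 4 members were called with both genes, without p21 and without p53, the counts found without it.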
